A study of Mus musculus with 4 samples.

Results

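The BMP and TGF-beta signalling genes examined here were 10 mouse genes: the ligand genes Bmp4, Bmp7, Tgfb1, Tgfb2 and Inhba, the receptor genes Bmpr1a, Tgfbr1 and Tgfbr2, the signal transducer gene Smad3 and the inhibitor gene Smad7. Their open chromatin was followed through the ATAC-seq peaks with the summit within 50 kb of any annotated transcription start site (TSS) of each gene on the mm9 genome. Peaks of the 4 libraries that shared at least 1 bp were joined into 1 site. The 10 genes had 33 TSSs and held 269 peaks, which fell into 110 sites of 100608 sites in all. Of the 110 sites, 70 had a TSS of the member gene as the nearest TSS of any gene, and the other 40 lay closer to a TSS of another gene.

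ATAC-seq uses the Tn5 transposase to cut DNA that is accessible in the nucleus, so that a peak marks open chromatin. The cells were im-scWAT cells, a culture from mouse subcutaneous white adipose tissue. According to the study's methods, the stromal vascular fraction of the tissue was immortalised with the SV40 large T antigen and selected with puromycin. Cells of the WT groups carried Jmjd1a +/+ and cells of the HY groups Jmjd1a HY/HY, a histidine-to-tyrosine change in the histone demethylase JMJD1A that was designed to remove its enzymatic activity. D0 cells were taken on day 0, before differentiation. D8 cells were taken on day 8, after 2 days in a medium with indomethacin, dexamethasone, 3-isobutyl-1-methylxanthine, rosiglitazone, insulin and T3, and another 6 days with insulin, T3 and rosiglitazone alone. Each of the 4 groups (WT D0, WT D8, HY D0 and HY D8) was 1 library, so there was no spread between replicates, no test between groups was made, and a genotype cannot be told apart from the cell line that carried it.

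BMPs, TGF-betas and activins are secreted dimers of one protein superfamily. They bind pairs of type I and type II serine/threonine kinase receptors, which phosphorylate the receptor-regulated SMAD proteins. TGF-beta and activin signal mainly through SMAD2 and SMAD3, and BMPs through SMAD1, SMAD5 and SMAD9, each together with SMAD4. In the adipose lineage TGF-beta signalling through SMAD3 is known to restrain differentiation, whereas BMP4 is known for committing precursors and BMP7 for promoting thermogenic fat. Expression was not measured here, and a peak near a gene does not show that it acts on that gene.

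The measure at each site was the summit pileup, the number of overlapping sequenced tags at the highest point of the peak, solved from the deposited enrichment and p-value of the peak. Tags were PCR amplified, so the 95% intervals below (exact Poisson for a pileup, exact binomial for a ratio of 2 pileups) cover counting error only. Ratios between libraries were scaled by the genome-wide background rate, which was higher at D0 (0.659 for WT, 0.708 for HY) than at D8 (0.531 for WT, 0.494 for HY). The D8 libraries were thus shallower, and their lists were shorter (41228 and 48964 peaks against 71523 and 77994 at D0). The median pileup of all peaks was 13 to 15 and the lowest was 4 or 5, so a site without a peak was one with a low or unknown pileup and not a closed one in the strict sense. Where 4 pileups stand in a row, WT D0 and WT D8 come before HY D0 and HY D8. The labelled days were checked on marker promoters: in both genotypes 2 of 7 adipocyte promoters had a peak at D0 and 6 at D8, and of 6 preadipocyte promoters 6 in WT and 5 in HY had one at D0 and 2 at D8. Those of the adipocyte genes Adipoq, Fabp4, Plin1 and Cidec had a peak at D8 and not at D0 in both. The promoters of the preadipocyte genes Cd34, Ly6a and Thy1 showed the reverse. Of the other cell types, the promoters of the 3 immune genes (Ptprc, Csf1r, Cd3e) and 3 muscle genes (Myod1, Myog, Ckm) had no peak in any library. Among endothelial genes Cdh5 had none, Pecam1 had a peak of pileup 9 in WT D0 alone, and Tek had peaks of 23 in WT D0 and 19 in HY D0 that were not called at D8. The adipocyte gene Ucp1 had no promoter peak in any library.

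The lowest D8 to D0 ratios were at single distal sites of the receptor genes Tgfbr2 and Bmpr1a, where chromatin open in preadipocytes lost most of its pileup by D8 in both genotypes. The sequences of 8 sites are given here because the values below turn on them. Each is the 201 bases centred on the strongest summit, from the + strand of NCBIM37 (mm9), written 5′ to 3′, with the letters TGACTCA (the AP-1 consensus) and TTGCNNAA (the C/EBP consensus), on either strand, in capitals. The first 3 sites had a peak in all 4 libraries and lost pileup by D8, and the fourth is the Tgfbr2 promoter:
Tgfbr2 22.3 kb downstream, chr9:116062016-116062216: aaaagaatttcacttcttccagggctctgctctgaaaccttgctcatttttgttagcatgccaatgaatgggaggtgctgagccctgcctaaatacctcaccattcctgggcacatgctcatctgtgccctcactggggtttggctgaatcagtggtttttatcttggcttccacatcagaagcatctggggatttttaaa
Bmpr1a 5.0 kb upstream, chr14:35321449-35321649: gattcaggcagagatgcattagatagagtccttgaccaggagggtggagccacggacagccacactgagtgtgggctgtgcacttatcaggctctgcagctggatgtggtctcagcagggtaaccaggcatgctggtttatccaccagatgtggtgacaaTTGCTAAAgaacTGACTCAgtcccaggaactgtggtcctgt
Smad3 0.8 kb upstream, chr9:63591724-63591924: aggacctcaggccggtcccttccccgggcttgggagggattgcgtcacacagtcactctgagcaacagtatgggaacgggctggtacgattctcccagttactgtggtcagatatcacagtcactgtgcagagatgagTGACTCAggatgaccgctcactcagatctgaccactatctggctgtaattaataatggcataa
Tgfbr2 0.1 kb upstream, chr9:116084399-116084599: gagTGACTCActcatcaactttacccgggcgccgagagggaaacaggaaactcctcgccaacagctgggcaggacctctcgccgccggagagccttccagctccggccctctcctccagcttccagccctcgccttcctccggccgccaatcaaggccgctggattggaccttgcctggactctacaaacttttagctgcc
The next pair are sites with a peak at D8 and not at D0, and the last pair are sites with a peak at D0 and not at D8, in both genotypes:
Bmpr1a 19.7 kb downstream, chr14:35253903-35254103: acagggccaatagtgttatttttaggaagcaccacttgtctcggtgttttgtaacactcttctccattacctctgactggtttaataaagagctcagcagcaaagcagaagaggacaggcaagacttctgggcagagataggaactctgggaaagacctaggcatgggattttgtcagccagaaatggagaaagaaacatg
Tgfbr2 3.0 kb upstream, chr9:116087300-116087500: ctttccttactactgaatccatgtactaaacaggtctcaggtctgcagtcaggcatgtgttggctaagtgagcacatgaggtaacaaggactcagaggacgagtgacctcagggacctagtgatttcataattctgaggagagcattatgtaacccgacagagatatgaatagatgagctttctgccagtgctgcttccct
Tgfb2 2.2 kb downstream, chr1:188526877-188527077: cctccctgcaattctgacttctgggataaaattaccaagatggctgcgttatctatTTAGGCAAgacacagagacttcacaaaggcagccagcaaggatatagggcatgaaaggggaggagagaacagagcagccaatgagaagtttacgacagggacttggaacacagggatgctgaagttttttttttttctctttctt
Smad3 9.2 kb downstream, chr9:63505068-63505268: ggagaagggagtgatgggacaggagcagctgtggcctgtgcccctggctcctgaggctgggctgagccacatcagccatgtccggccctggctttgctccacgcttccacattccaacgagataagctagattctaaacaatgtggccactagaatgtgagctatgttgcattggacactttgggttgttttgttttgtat

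Across the 110 sites, 70 had a peak at D0 in WT and 46 at D8, against 82 and 53 in HY. In all 4 libraries 31 sites had a peak, which was 28.2% of the sites against 24.2% of all sites in the series. A peak at D8 in both genotypes and at D0 in neither, called opened below, was found at 7 sites (6.36% against 5.99% of all sites). The reverse, called closed, was found at 21 sites (19.1% against 24.6% of all sites). These shares lay near those of all sites, and opening or closing was therefore not particular to these genes. With every list cut to the length of the shortest, 8 sites were closed, and of all sites 14.1%. No site had a peak in WT alone on both days (0.322% of all sites had one), and 1 site did so in HY alone (0.909% against 0.899% of all sites).

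**Figure D1:**
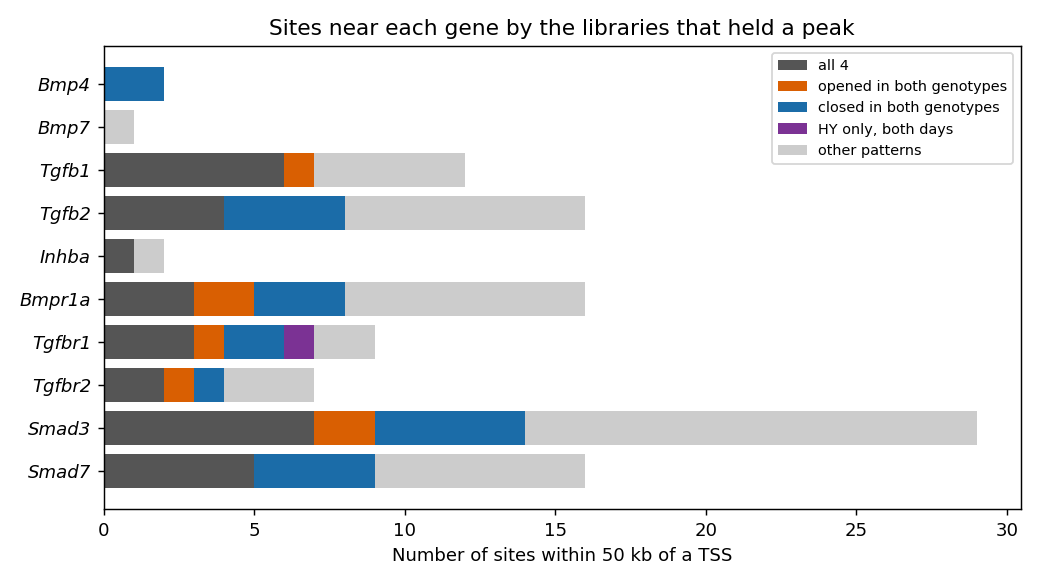
Number of sites within 50 kb of a TSS (x axis) for each of the 10 genes, ordered from ligands to receptors and SMADs, coloured by the libraries that held a peak; other patterns are sites in 1 or 3 libraries or in other pairs. Smad3 held 29 sites, whereas Bmp4, Bmp7 and Inhba held 2, 1 and 2.

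**Figure D2:**
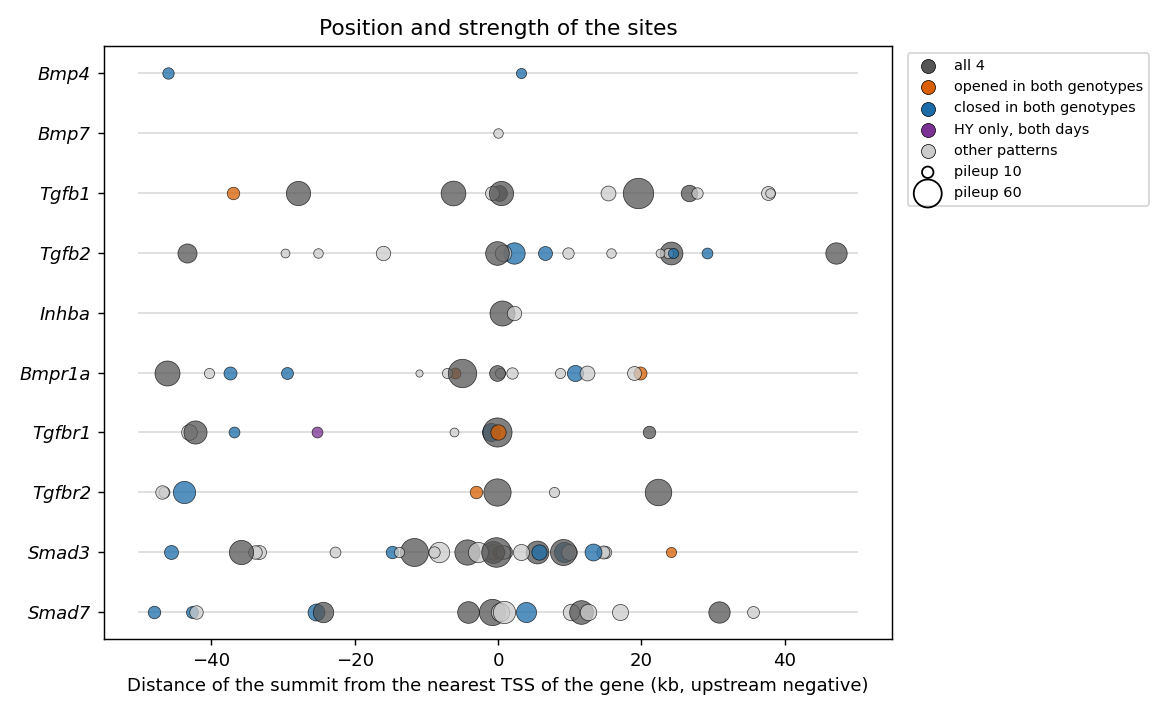
Each circle is 1 site, placed by the distance of its strongest summit from the nearest TSS of the gene (x axis, kb, upstream negative), with an area proportional to its highest pileup and the same colours for the pattern. Sites with a peak in all 4 libraries carried the largest pileups, and opened and closed sites smaller ones.

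The number of sites differed widely between the genes. Smad3 had 29 sites, Bmpr1a, Tgfb2 and Smad7 had 16 each, Tgfb1 12, Tgfbr1 9 and Tgfbr2 7. Both BMP ligand genes and the activin subunit gene Inhba were nearly bare, with 2 sites at Bmp4, 1 at Bmp7 and 2 at Inhba. The 31 sites with a peak in all 4 libraries had a highest pileup of 12 to 71 (median 45), the 21 closed sites 8 to 38 (median 15) and the 7 opened sites 8 to 18 (median 12). Divided by the background rate of their libraries, the medians of closed and opened sites were close, 21.2 and 22.6, and for all sites they were 21.2 and 28.3. Of the 110 sites, 40 had a peak in 1 library only (36.4% against 32.9% of all sites), with pileups of 4 to 26 and a median of 10. Of these, 20 were in HY D0 alone, the library with the highest background rate, 10 in WT D0, 7 in HY D8 and 3 in WT D8.

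Of the BMP ligands, Bmp4 had no promoter peak in any library. Its gene lies at chr14:47003195-47010344 on the - strand. A site in its intron, 3.1 kb downstream of the nearest TSS, had a pileup of 8 in WT D0 and 8 in HY D0 and no peak at D8. An intergenic site 46.0 kb upstream had 10 in WT D0 and 9 in HY D0, again with no peak at D8. Both Bmp4 sites were closed, and both were close to the lowest pileups that the lists contain. For neither was a Bmp4 TSS the nearest of all genes. Bmp7, at chr2:172693513-172765822 on the - strand, had a single site in its window, a peak of pileup 7 at the TSS in HY D0 alone.

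Tgfb1 encodes the TGF-beta ligand best known for fibrosis and immune regulation. Its gene lies at chr7:26472021-26490096 on the + strand, and the TSS of Tgfb1 was the nearest one for only 3 of its 12 sites. The promoter site 0.2 kb downstream of a TSS had a pileup of 19 at D0 and 13 at D8 in WT, against 17 and 13 in HY. After scaling, the D8 to D0 ratio was 0.849 (0.386 to 1.81) in WT, and in HY it was 1.09 (0.489 to 2.39), so no change was detectable at this depth. A further promoter site, 0.8 kb upstream of an internal TSS, had a peak of 11 in WT D8 and of 15 in HY D0 only.

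Several strong sites around Tgfb1 lay at promoters of neighbouring genes or within Ccdc97. Within Tgfb1 itself, the intronic site 0.5 kb downstream of a TSS had 34, 24, 45 and 26, with day ratios of 0.876 (0.497 to 1.52) in WT and, in HY, 0.827 (0.49 to 1.37). The site 27.9 kb upstream, at the promoter of Exosc5, had a pileup of 42 at D0 and 33 at D8 in WT, against 45 and 41 in HY, and the site 6.2 kb upstream, at the promoter of B9d2, had 47, 34, 47 and 36. At neither of these promoters did the interval of a ratio between days leave 1. It did in WT at the site 19.6 kb downstream, in a non-coding exon part of the neighbouring gene Ccdc97, with a pileup of 60 at D0 and 19 at D8 in WT, against 71 and 34 in HY. Its D8 to D0 ratio was 0.393 (0.222 to 0.668) in WT, and in HY it was 0.686 (0.442 to 1.05). The fall was smaller by the deposited enrichment, with log2 ratios of -0.82 in WT, short of 2-fold, and -0.07 in HY. Tgfb1 had 1 opened site, in an intron of Bckdha 36.9 kb upstream, with D8 pileups of 12 for WT and 9 for HY. It had no closed site, where 24.6% of all sites closed.

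Tgfb2, which encodes a second TGF-beta isoform, was the ligand gene whose promoter lost pileup. The gene lies at chr1:188447065-188529871 on the - strand. Its promoter site, 0.1 kb upstream of a TSS, had a pileup of 40 at D0 and 14 at D8 in WT, against 43 and 15 in HY. Both D0 values lay above both D8 values by more than their counting intervals allow in the ratio, which was 0.434 (0.218 to 0.816) in WT, and in HY it was 0.499 (0.258 to 0.917). On the deposited enrichment over local background the fall was smaller, with a log2 ratio of -0.28 in WT and -0.18 in HY, and both D8 to D0 differences were then under 2-fold. The intron 2.2 kb downstream, whose sequence is shown above, held a closed site with 21 in WT D0 and 35 in HY D0. Another closed site 6.5 kb downstream had 15 in WT D0 and 8 in HY D0.

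Sites far from Tgfb2 had ratios with wider or higher intervals. The site 47.1 kb downstream of the nearest TSS had a pileup of 26 at D0 and 10 at D8 in WT, against 35 and 16 in HY, with ratios of 0.477 (0.205 to 1.02) and 0.655 (0.338 to 1.21). The site 24.1 kb downstream had 33, 21, 40 and 29, and the site 43.4 kb upstream, at the TSS of A430105J06Rik, had 21, 16, 28 and 19. None of these ratios had an interval that left 1. Tgfb2 had 4 closed sites of 16 and no opened site, where 24.6% of all sites closed and 5.99% opened.

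Inhba encodes the subunit of activin A. The gene lies at chr13:16103684-16119044 on the + strand. Promoter sites were those with any peak summit from 1000 bp upstream to 100 bp downstream of any TSS of the gene. Distances are from the strongest summit to the nearest TSS. The main Inhba site covered the TSS with its strongest summit 0.6 kb downstream, in an intron, and no summit of it lay in that window. Pileups there were 36 at D0 and 29 at D8 in WT, against 48 and 35 in HY, and the D8 to D0 ratio was 1.00 (0.591 to 1.68) in WT, and in HY it was 1.04 (0.655 to 1.65). By the scaled pileup no change was detectable at the Inhba start site, within intervals that run from 0.591 to 1.68. The deposited enrichment there was higher at D8 in both genotypes, with log2 ratios of 0.48 in WT and 0.55 in HY. The only other site, 2.2 kb downstream, had a peak of 16 in WT D0 alone.

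**Figure D3:**
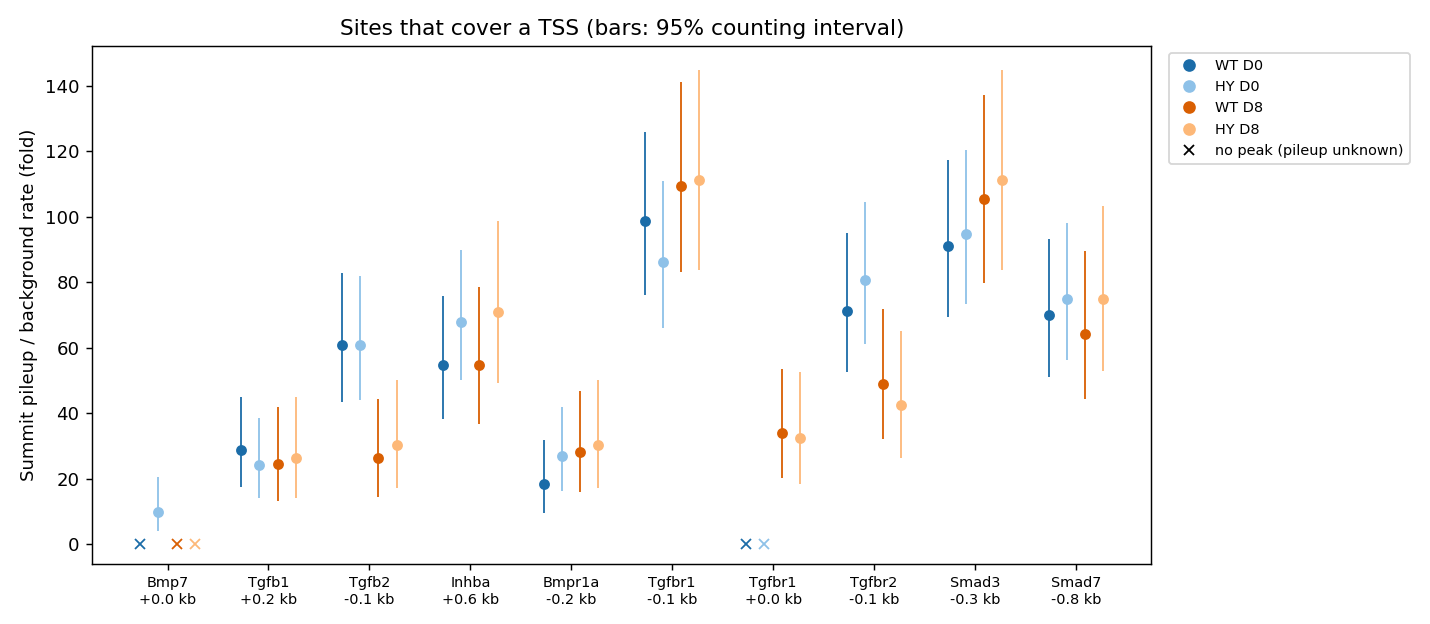
Summit pileup divided by the genome-wide background rate of the library (y axis) at the 10 sites that cover a TSS of a member gene, by library; points are single libraries, bars are 95% counting intervals and crosses mark libraries with no peak, where the pileup is unknown. The Tgfb2 and Tgfbr2 points were lower at D8 than at D0 in both genotypes, although some of their bars overlap, and the interval of the D8 to D0 ratio lay below 1 in both genotypes at Tgfb2 and in HY alone at Tgfbr2.

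Bmpr1a encodes a type I receptor for BMPs and lies at chr14:35223920-35316527 on the - strand. Its promoter site was weak, with a pileup of 12 at D0 and 15 at D8 in WT, against 19 and 15 in HY. The ratio between the days was 1.55 (0.678 to 3.63) in WT, and in HY it was 1.13 (0.535 to 2.35). The Bmpr1a site with the highest pileup at D0 was intergenic, 5.0 kb upstream, with a pileup of 48 at D0 and 8 at D8 in WT, against 62 and 11 in HY. Both D8 libraries were far below both D0 libraries, with ratios of 0.207 (0.0845 to 0.441) in WT, and in HY of 0.254 (0.121 to 0.487). On the deposited enrichment the fall was smaller but still past 2-fold, with log2 ratios of -1.47 and -1.16, against -2.27 and -1.98 on the scaled pileup. The 201 bases of this site hold 1 match to each of the AP-1 and C/EBP consensus letters, 4 bases apart in the sequence shown above.

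Opened and closed sites of Bmpr1a lay side by side within the gene. In introns, the site 19.7 kb downstream opened, reaching 13 in both D8 libraries, and the site 6.0 kb upstream of an internal TSS opened with 9 and 7. The intronic site 10.7 kb downstream closed, with 15 in WT D0 and 20 in HY D0. A closed site 37.4 kb upstream, in an intron of Ldb3, had 8 and 13. The pileups of the genotypes went apart at the site 46.2 kb upstream, also in an intron of Ldb3, with a pileup of 29 at D0 and 29 at D8 in WT, against 48 and 21 in HY. Its D8 to D0 ratio was 1.24 (0.716 to 2.15) in WT, and in HY it was 0.626 (0.356 to 1.07), intervals that overlap. By the deposited enrichment both genotypes were lower at D8, with log2 ratios of -0.09 in WT and -1.04 in HY. The largest D8 to D0 ratio of all member sites was also at Bmpr1a, 2.07 (0.848 to 5.36) in WT at an intronic site 18.9 kb downstream, from pileups of 9 and 15, with 10 in HY D8 and no peak in HY D0.

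Tgfbr1 encodes the type I receptor for TGF-beta. The gene lies at chr4:47366094-47427803 on the + strand, and its promoter was the most open of the set together with that of Smad3. The site 0.1 kb upstream of the TSS had a pileup of 65 at D0 and 58 at D8 in WT, against 61 and 55 in HY. Scaled, the ratio was 1.11 (0.764 to 1.6) in WT, and in HY it was 1.29 (0.88 to 1.89), so no change was detectable. At the edges of this peak the peak calls differed between the days. A site whose summit lay 1.0 kb upstream was closed, with 14 in WT D0 and 25 in HY D0, and a site just after the TSS opened, reaching 18 in WT and 16 in HY at D8. The opened site is 131 bp from the promoter site and the closed site 228 bp. Both calls were weak in a library, with a -log10 q of 2.95 for the closed site in WT D0 and 4.56 for the opened site in HY D8, so neither pattern held in both genotypes at a -log10 q of 5.

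A distal site of Tgfbr1 lost pileup. The site 42.3 kb upstream, in an intron of Col15a1, had a pileup of 41 at D0 and 11 at D8 in WT, against 40 and 14 in HY, with ratios of 0.333 (0.154 to 0.66) and 0.501 (0.252 to 0.941). By the deposited enrichment its log2 ratio was -1.20 in WT and -0.61 in HY. A weak intronic site 21.1 kb downstream had 9, 9, 11 and 12, with intervals that include 1. The intergenic site 25.3 kb upstream was the only site of the 110 with a peak in 1 genotype on both days, with 9 in HY D0 and 5 in HY D8. Its pileups were near the lowest of the lists, and it was lost once a -log10 q of 5 or more was required. A closed intergenic site 36.8 kb upstream had 8 in WT D0 and 9 in HY D0.

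Tgfbr2 encodes the type II receptor to which TGF-beta binds first, and lies at chr9:115993415-116084383 on the - strand. It had 1 TSS. The intronic site 22.3 kb downstream of it showed the largest fall of all member sites in WT, with a pileup of 48 at D0 and 7 at D8 in WT, against 54 and 11 in HY. The D8 to D0 ratio was 0.181 (0.0691 to 0.402) in WT, and in HY it was 0.292 (0.138 to 0.564). On the deposited enrichment the fall was smaller, with a log2 ratio of -1.56 in WT and -1.10 in HY, and both stayed past 2-fold. None of the 4 motifs searched was found in the 201 bases of this site.

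The promoter of Tgfbr2 was lower at D8 as well, by less. Its pileups were 47 at D0 and 26 at D8 in WT, against 57 and 21 in HY. The ratio was 0.687 (0.408 to 1.13) in WT, an interval that includes 1, and 0.528 (0.304 to 0.884) in HY. Log2 ratios by the deposited enrichment were smaller, -0.17 in WT and -0.43 in HY, against -0.54 and -0.92 on the scaled pileup. Upstream of the gene, the intergenic site at 3.0 kb opened with 12 in WT D8 and 11 in HY D8. The intergenic site at 43.8 kb closed, with 18 in WT D0 and 38 in HY D0. At D0 this was the largest HY to WT ratio of the 59 sites compared, 1.97 (1.09 to 3.66).

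Smad3 encodes the SMAD that is phosphorylated by the TGF-beta and activin receptors. The gene lies at chr9:63494574-63605801 on the - strand with 5 TSSs, and all 29 of its sites were nearest to one of them. Because these TSSs are spread over the gene, several sites named as upstream lie in its introns. The site at the outermost TSS, 0.3 kb upstream, had a pileup of 60 at D0 and 56 at D8 in WT, against 67 and 55 in HY, with ratios of 1.16 (0.79 to 1.7) and 1.18 (0.808 to 1.71). A site 0.8 kb upstream of an internal TSS fell, with 30, 9, 37 and 11 and ratios of 0.372 (0.155 to 0.804) in WT, and in HY of 0.426 (0.196 to 0.852). Its log2 ratio on the deposited enrichment was -0.70 in WT and -0.33 in HY, both short of 2-fold. At another internal TSS the site 0.7 kb upstream had 14 in WT D0, 18 in HY D0 and 6 in HY D8, with no peak in WT D8. The interval of the outer promoter thus included 1 in both genotypes, and that of the site 0.8 kb upstream of an internal TSS did not.

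Further Smad3 sites fell on the scale of pileups. The site 9.1 kb downstream of an internal TSS had a pileup of 52 at D0 and 15 at D8 in WT, against 47 and 13 in HY, with ratios of 0.358 (0.187 to 0.646) and 0.396 (0.197 to 0.744). The site 5.4 kb downstream had 33, 11, 40 and 15, with 0.414 (0.189 to 0.839) and 0.537 (0.276 to 0.994). Upstream of the gene, the intergenic site at 35.9 kb had 43, 18, 45 and 16, with 0.52 (0.282 to 0.92) and 0.509 (0.269 to 0.918). All 3 falls were, by the deposited enrichment, under 2-fold in both genotypes, with log2 ratios of -0.51 in WT and -0.53 in HY at 9.1 kb, -0.36 and -0.19 at 5.4 kb and -0.43 and -0.48 at 35.9 kb.

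Other Smad3 sites kept more of their pileup. The site 11.7 kb upstream of an internal TSS had a pileup of 60 at D0 and 36 at D8 in WT, against 51 and 23 in HY. The site 4.4 kb upstream of one had 47, 35, 49 and 21. Both had intervals that include 1 in both genotypes, at 0.745 (0.478 to 1.14) and 0.646 (0.377 to 1.08) for the former and at 0.924 (0.579 to 1.46) and 0.614 (0.35 to 1.04) for the latter. The former went the other way on the deposited enrichment, with log2 ratios of 0.33 and 0.09. Of 5 closed sites the strongest, 9.2 kb downstream of an internal TSS, had 31 in WT D0 and 30 in HY D0, and the site 45.5 kb upstream of the gene had 13 and 15. The 2 opened sites had 10 in WT D8 and 12 in HY D8 at 0.2 kb, and 7 and 8 at 24.2 kb.

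Smad7 encodes the inhibitory SMAD that is itself induced by TGF-beta and blocks the type I receptors. The gene lies at chr18:75527183-75555589 on the + strand. Its promoter site had a pileup of 46 at D0 and 34 at D8 in WT, against 53 and 37 in HY, with ratios of 0.917 (0.571 to 1.46) and 1.00 (0.639 to 1.55). A second site, in a coding exon 0.3 kb downstream of the nearest, internal TSS, lay in the promoter window of another Smad7 TSS. It had a peak of 26 in HY D0 alone over a local background of 6.64. At the main Smad7 promoter no change was detectable, as at those of Tgfbr1 and Smad3.

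Away from the promoter, 2 Smad7 sites had a ratio whose interval lay below 1 in WT, and 1 of them in HY too. The intronic site 11.5 kb downstream had a pileup of 38 at D0 and 14 at D8 in WT, against 43 and 19 in HY, with ratios of 0.457 (0.229 to 0.863) and 0.633 (0.348 to 1.11). The intergenic site 30.9 kb downstream had 29, 11, 35 and 9, with 0.471 (0.212 to 0.971) and 0.368 (0.156 to 0.781). Both were smaller by the deposited enrichment, with log2 ratios of -0.45 (WT) and -0.21 (HY) for the intronic site and -0.57 and -0.74 for the intergenic one. The intergenic site 4.2 kb upstream had 36, 23, 29 and 18, with intervals that include 1. Closed sites were the intronic one 3.9 kb downstream, with 31 in WT D0 and 25 in HY D0, and the one 25.3 kb upstream, with 19 and 22. The site 0.8 kb downstream of an internal TSS had 36 in WT D0, 38 in HY D0 and 15 in HY D8 with no peak in WT D8. No Smad7 site opened, and 4 of 16 closed, where 5.99% of all sites opened and 24.6% closed.

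Set side by side, more sites lost a peak than gained one, in lists that were longer at D0. In WT, 12 of the 110 sites had a peak at D8 and not at D0 (10.9% against 9.39% of all sites) and 36 had the reverse (32.7% against 40.8%). In HY these numbers were 15 (13.6% against 12.1%) and 44 (40.0% against 43.6%). With the lists cut to equal length the counts were nearly balanced. Of 72 sites, WT then had 15 with a peak at D8 and not at D0 (21.4% of all sites) and 17 with the reverse (26.5% of all sites). In HY the counts were 14 (21.8% of all sites) and 15 (25.7%). With a -log10 q of 5 or more, 82 sites were left. Of these 6 in WT and 5 in HY had a peak at D8 and not at D0 (9.47% and 10.3% of all sites), and 2 were opened (5.97% of all sites), counts too small to set the members apart. The reverse was found at 32 sites in each genotype (43.0% of all sites in WT, 45.7% in HY).

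Among sites with a peak on both days, falls of 2-fold or more made up a larger share of the member sites than of all sites in WT. Such a fall could be counted only where a peak was still called at D8. The 31 member sites with a peak in all 4 libraries were stronger than all such sites. Their median highest pileup was 45 against 35, and over the background rate 63.6 against 54.6. Whether this bears on the shares was not tested. Of 34 member sites with a peak on both days in WT, 13 fell 2-fold or more (38.2% against 14.7% of all sites) and 1 rose (2.94% against 4.78%). Of 38 in HY, 7 fell 2-fold or more (18.4% against 17.2% of all sites) and 0 rose (5.27% of all sites did). Away from promoters of any gene the falls were 11 of 22 in WT against 21.3% of all such sites, and 4 of 25 in HY against 23.5%. The median log2 ratio of D8 to D0 was -0.45 in WT against -0.16 for all sites, and -0.44 in HY against -0.18. By the pileup median the members were thus lower than all sites in both genotypes, and by the 2-fold rule HY lay at the background. In HY, Tgfbr1 at 42.3 kb upstream with 0.501 and Smad3 at 35.9 kb upstream with 0.509 lay just short of 2-fold. How many of all sites did so was not counted. On the deposited enrichment the falls of 2-fold or more numbered 3 of 34 in WT (5.97% of all sites) and 3 of 38 in HY (10.6% of all sites). The medians on that measure were -0.30 in WT against -0.16 for all sites, and -0.21 in HY against -0.23, so the members were not lower than all sites in HY and the difference in 2-fold falls in WT shrank. With libraries scaled to equal medians at the sites in all 4 libraries, which moved the median of all sites in WT from -0.16 to 0.00, the falls numbered 10 in WT (11.2% of all sites) and 5 in HY (14.6%). The member medians were then -0.29 in WT and -0.35 in HY, against -0.09 for all sites in HY.

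Among the 31 sites with a peak in all 4 libraries, 19 were lower at D8 in both genotypes (46.9% of all such sites were) and 4 were higher in both (29.6%). Another 6 went in opposite directions (22.1%), and 2 had a ratio of 1 in 1 genotype to within 0.005 on the log2 scale. In both genotypes 6 fell 2-fold or more: Tgfbr2 22.3 kb downstream, Bmpr1a 5.0 kb upstream, Smad3 9.1 kb downstream and 0.8 kb upstream of internal TSSs, Smad7 30.9 kb downstream and the Tgfb2 promoter. Only 2 of the 6 did so by the deposited enrichment, the Tgfbr2 and Bmpr1a sites. Among all sites with a peak in all 4 libraries, 8.21% fell 2-fold or more in both genotypes on the scaled pileup and 2.27% on the enrichment. On the scaled pileup a further 5 member sites did so in WT alone (6.45% of all such sites) and 0 in HY alone (4.1%). By the enrichment it was 1 in WT alone (3.53%), the Tgfbr1 site 42.3 kb upstream, and 1 in HY alone (3.68%), the Bmpr1a site 46.2 kb upstream. The interval of the ratio lay below 1 at 11 of the 31 sites in WT (14.8% of all such sites) and 10 in HY (12.6%), and above 1 at 0 sites in WT (4.49%) and 0 in HY (5.96%). The 12 of the 31 sites at a promoter of any gene, neighbours included, had a median log2 ratio of -0.14 in WT and 0.07 in HY, and the 19 other sites -0.94 and -0.66. Over all sites with a peak in all 4 libraries the same split gave -0.05 and 0.02 at promoters and -0.35 and -0.26 elsewhere.

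**Figure D4:**
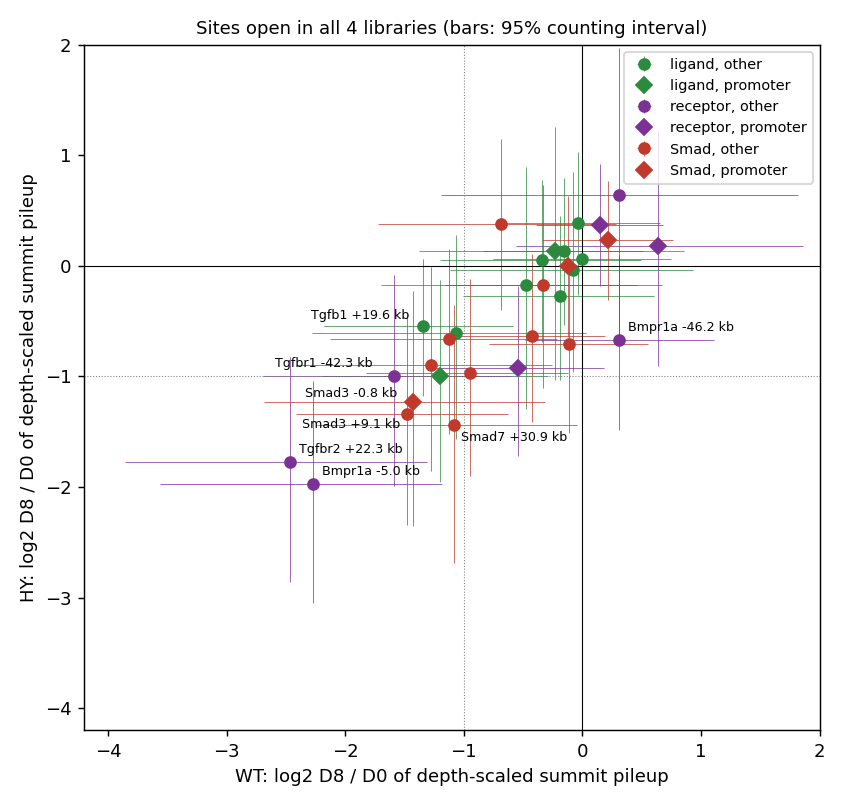
Log2 ratio of depth-scaled summit pileup at D8 over D0 in WT (x axis) and HY (y axis) at the 31 member sites with a peak in all 4 libraries, by the role of the gene, with sites at a promoter of the member gene as diamonds; bars are 95% counting intervals and dotted lines mark a 2-fold fall. Most points lie below 0 on both axes, with Tgfbr2 22.3 kb downstream (-2.47 and -1.78) and Bmpr1a 5.0 kb upstream (-2.27 and -1.98) farthest down.

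The genotypes were compared on each day. At D0, 23 sites had a peak in HY and not in WT (20.9% against 18.8% of all sites) and 11 in WT and not in HY (10.0% against 10.5%). At D8 these numbers were 13 (11.8% against 13.0%) and 6 (5.45% against 4.73%). With lists of equal length they were 7 (11.7% of all sites) and 7 (10.6%) at D0, and 7 (12.7%) and 6 (10.4%) at D8, of 72 sites. Among sites with a peak in both genotypes, 0 of 59 were 2-fold or more higher in HY at D0 (2.23% of all sites were) and 1 of 59 was lower (1.69% against 1.41%), the closed Tgfb2 site 6.5 kb downstream with a ratio of 0.497 (0.182 to 1.25). At D8, 1 of 40 was 2-fold or more higher in HY (2.50% against 1.68%) and 0 of 40 lower (0.512% of all sites were).

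The higher one at D8 was an intergenic site of Smad7, 24.4 kb upstream. Its pileups were 28 at D0 and 14 at D8 in WT, against 32 and 29 in HY, and the D8 to D0 ratio was 0.621 (0.302 to 1.22) in WT against 1.30 (0.757 to 2.21) in HY. The HY to WT ratio at D8 was 2.23 (1.14 to 4.56). The Tgfb1 site in Ccdc97 came next at 1.92 (1.07 to 3.57). The interval lay above 1 at these 2 of 40 sites at D8 (0.902% of all sites) and below 1 at 0 (0.122%). At D0 it lay above 1 at 1 of 59, the Tgfbr2 site 43.8 kb upstream (1.6% of all sites), and below 1 at 0 (0.823%). Counts this small were not tested against all sites. The median log2 ratio of HY to WT was 0.07 at D0 against 0.08 for all sites, and 0.19 at D8 against 0.15. By the deposited enrichment these medians were -0.01 at D0 and -0.03 at D8, so no overall genotype difference at these genes was detectable.

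Matches to 4 motifs were counted in the 201 bases around each summit, on both strands. TGACTCA, the AP-1 consensus, was found at 22 of 110 sites (20.0% against 18.2% of windows of this length at all sites). It was found at 12 of the 31 sites with a peak in all 4 libraries (38.7% against 13.3% of all such sites), at 2 of the 21 closed sites (9.52% against 26.3%) and at 0 of the 7 opened sites (5.24% of all opened sites). Leaving out promoters of any gene, 10 of 19 member sites with a peak in all 4 libraries had it (52.6% against 21.5% of all such sites). The sites that held it included Bmpr1a 5.0 kb upstream, the Tgfbr2 promoter, Tgfbr1 42.3 kb upstream and Smad3 5.4 kb downstream, 0.8 kb, 11.7 kb and 35.9 kb upstream. These had lower scaled pileups at D8 in both genotypes, whereas Tgfbr1 21.1 kb downstream, which also held it, had ratios of 1.24 in WT and 1.56 in HY. Of the 12 sites with the match, 11 had a log2 ratio below 0 in WT and 9 in HY. Among the 31 sites, the median log2 ratio of D8 to D0 was -0.82 in WT and -0.76 in HY at the 12 with the match and -0.16 and -0.17 at the 19 without it. Leaving out promoters of any gene turned the order, with -0.82 and -0.59 at 10 sites with the match and -1.07 and -0.67 at 9 without it. Over all sites with a peak in all 4 libraries and no promoter, these medians were -0.63 and -0.58 with it and -0.27 and -0.18 without.

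TTGCNNAA, the C/EBP consensus, was found at 10 of 110 sites (9.09% against 11.4%). Of the closed sites 5 of 21 had it (23.8% against 8.82% of all closed sites), among them the Tgfb2 intronic site shown above, and of the opened sites 0 of 7 (26.9% of all opened sites). The palindromic SMAD box GTCTAGAC was found at 0 of 110 sites and at 0.201% of all sites. GGTCANAGG, the inner part of a direct repeat of the kind bound by PPAR and RXR, was found at 4 of 110 sites (3.64% against 1.37%), among them the Tgfbr1 promoter. These are counts of letters in a window and say nothing of which factor was bound.

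The wider pathway was described through a list of 47 further genes with 607 sites. Of them 178 had a peak in all 4 libraries (29.3%), 47 were opened (7.74%) and 122 closed (20.1%), shares near those of the 10 genes. Over all sites these shares were 24.2%, 5.99% and 24.6%. In WT 38 of the 47 genes had a promoter peak at D0 and 35 at D8, and in HY 34 and 33, against 7, 7, 8 and 7 of the 10. Over 22225 protein-coding genes the shares were 55.8% and 51.3% in WT, and 56.8% and 52.5% in HY. By role, ligand genes had the smallest share of sites in all 4 libraries (11 of 76, 14.5%) and response genes the largest (31 of 83, 37.3%), against 24.2% of all sites. The receptor-regulated, common and inhibitory Smad genes (Smad1, Smad2, Smad4, Smad5, Smad6, Smad9) had a promoter peak in every library, 6 of 6. At no gene of the list was a promoter peak gained in both genotypes or lost in both.

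By the number of sites, the pathway genes with most opened sites were Smurf1 with 7 of 27, Tgfbr3 with 5 of 43, Ltbp2 with 5 of 24 and Id3 with 5 of 22, where 5.99% of all sites opened. SMURF1 is a ubiquitin ligase for SMADs and receptors, and Tgfbr3 encodes the co-receptor betaglycan. Ltbp2 encodes a member of the latent TGF-beta binding protein family, and Id3 is a BMP response gene. Closed sites were most numerous at Ltbp1 with 10 of 34, Acvr1 with 7 of 13, Acvrl1 with 6 of 23 and Ltbp3 with 6 of 17, where 24.6% of all sites closed. The type I receptor gene Acvr1c, known for its expression in adipocytes, had 4 opened sites of 9, with promoter pileups of 9 at D0 and 14 at D8 in WT, against 12 and 18 in HY. Promoters that lost pileup included Ctgf, a TGF-beta response gene, with a pileup of 56 at D0 and 13 at D8 in WT, against 52 and 17 in HY, and Ltbp1 with 36, 9, 52 and 8. The promoter of Ltbp3 went the other way, with 16 at D0 and 29 at D8 in WT, and 38 in HY D8 with no peak in HY D0. Acvr1c, Ctgf and the promoters of Ltbp1 and Ltbp3 were chosen here after their values were seen.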

How the data were processed

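ATAC-seq was run on 4 libraries of im-scWAT cells, 1 per group. The deposited files are 1 narrowPeak list of 10 columns per library. The study's methods describe trimming, alignment to mm9, removal of PCR duplicates and peak calling; the submitters' processing notes name Bowtie2, SAMtools, Picard and deepTools without versions. The caller's threshold and a shift of read ends for Tn5 are not given in the sources used here. The deposited enrichment is a ratio, the fold of summit pileup over local background, not normalised between libraries. The authors' caller also wrote -log10 p and -log10 q, and a score that was not used.

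Pileup and background were solved from the deposited ratio and -log10 p, with a whole pileup within 0.002 of the -log10 p for 100% of peaks (0.9% to 1.35% when the -log10 p was shuffled), using Python 3.11.15, pandas 2.3.3, NumPy 2.4.6 and SciPy 1.17.1. The solver was tested on simulated data. Figures used matplotlib 3.10.9. Genome and annotation were NCBIM37 with GENCODE vM1, with 0 chromosomes having a peak beyond their end. Peaks off the assembled chromosomes (118 to 196 per list) were left out of sites. Coordinates are 1-based.

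All 10 genes were described. Sites were named by rule: every promoter site, the strongest opened and closed sites (up to 2 each per gene), the strongest distal sites in all 4 libraries and the one with the largest change between days, and the strongest sites of 1 genotype. Other sites are named where a result turns on them and were then chosen after their values were seen. Members and lists were chosen with earlier results of these data known. Alternatives were another definition of a site, a -log10 q minimum, lists of equal length, windows of 10 kb and 100 kb, another scaling and the deposited enrichment.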

Additional observations from a re-analysis of the deposited data

Results flagged for a closer look

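At 10 sites the genotypes or the days went in opposite directions between single libraries. With 1 library per group the difference was not tested at any of them, and counting intervals of the day ratios overlap at all 10. Each value here is the log2 ratio of D8 to D0 in HY minus that in WT. In 6 of them the days went opposite ways in the genotypes: 1.06 at the Smad7 site 24.4 kb upstream (-0.69 in WT, 0.38 in HY), -0.99 at the Bmpr1a site 46.2 kb upstream (0.31 in WT, -0.67 in HY), 0.42 at the Tgfb1 site 27.9 kb upstream, 0.29 at the Tgfb1 site 6.2 kb upstream, 0.37 at the Tgfb1 promoter site 0.2 kb downstream and 0.39 at the Tgfb2 site 24.1 kb downstream. At the other 4 the order of the genotypes differed between the days: -0.35 at the Smad7 site 30.9 kb downstream, 0.59 at the Tgfbr1 site 42.3 kb upstream, 0.22 at the Tgfbr1 promoter site 0.1 kb upstream and -0.38 at the Tgfbr2 promoter site 0.1 kb upstream. These directions turned with the measure at several sites. Of the 6 sites where the days went opposite ways, 4 did so with libraries scaled to equal medians, where the Tgfb1 sites 27.9 kb (0.12 in WT, 0.47 in HY) and 6.2 kb upstream (0.00 and 0.22) did not. By the deposited enrichment 3 of the 6 did, and the Bmpr1a site 46.2 kb upstream (-0.09 and -1.04), the Tgfb1 site 27.9 kb upstream (-0.23 and -0.11) and the Tgfb2 site 24.1 kb downstream (-0.37 and -0.08) were lower at D8 in both genotypes. The order of the genotypes differed between the days at 7 of the 10 sites, and at 5 of these 7 under each of the other measures.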

How the results depend on the processing

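No paired analysis was possible because the results come from no test between samples. No change of 2-fold or more at a named site changed sign. The D0 median log2 ratio of HY to WT went from 0.07 to -0.02 with equal medians and to -0.01 on the deposited enrichment, and the Smad3 site 11.7 kb upstream in WT went from -0.43 to 0.33 on the latter. With lists of equal length, sites with a peak at D0 and not D8 numbered 17 in WT and 15 in HY, those in HY and not WT 7 at D0 and 7 at D8, those in WT and not HY 7 at D0, closed sites 8 and HY-only sites 0. With a -log10 q of at least 5, sites with a peak at D8 and not D0 numbered 6 in WT and 5 in HY, in HY and not WT 15 at D0 and 7 at D8, in WT and not HY 3 at D8, opened sites 2 and HY-only sites 0. With summits within 150 bp as a site, D8 and not D0 gave 20 in WT and 24 in HY, and WT and not HY gave 20 at D0 and 13 at D8. With 50% coverage, 35 peaks were in HY and not WT at D0. Within 10 kb, D8 and not D0 gave 7 in WT and 5 in HY, D0 and not D8 gave 13 and 19, HY and not WT gave 10 at D0 and 3 at D8, WT and not HY gave 4 at D0, and there were 16 sites in all 4 libraries, 4 opened, 7 closed and 0 HY-only. Within 100 kb, D0 and not D8 gave 64 in WT and 73 in HY, HY and not WT gave 20 at D8, and there were 54 sites in all 4 libraries, 12 opened, 41 closed and 2 HY-only. No share over all sites was taken for the 150 bp rule, the 50% coverage or the windows of 10 kb and 100 kb. Those counts are therefore not set against a background. On the deposited enrichment, 2-fold falls from D0 to D8 numbered 3 in WT and 3 in HY, 2-fold rises 0 in WT, HY sites 2-fold lower at D0 0 and higher at D8 0, and the D8 median log2 ratio of HY to WT was -0.0324. The cause of these moves was not tested, except that equal lists, a stricter q and another window leave fewer or more peaks by construction. Read depth is known only relative to the other lists, a site without a peak has no pileup, and 1 library per group gives no error between cultures.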
